A study of Homo sapiens with 9 samples.

Results

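The genes that make, lengthen, desaturate and activate fatty acids were followed across RNA-seq libraries of LNCaP:C4-2, a prostate cancer cell line derived from LNCaP that grows under castrate conditions. The members were 36 genes given as a list of symbols and found through their Ensembl gene identifiers, of 60675 genes counted in all. Of these, 34 had enough counts to be tested, whereas OLAH and ELOVL3 did not. There were 3 groups of 3 libraries, carrying a scrambled shRNA that targets no gene (shScramble), shMETTL3 guide 2 or shMETTL3 guide 1. METTL3 is the catalytic subunit of the complex that writes N6-methyladenosine on RNA, and the comparisons ask how basal expression differed where it had been targeted. The shRNAs were expressed from a doxycycline-inducible pLKO vector in cells kept under puromycin, which the study calls stable clones. All groups, shScramble included, received doxycycline at 1 μg/ml for 6 days in phenol red-free medium with charcoal-stripped serum, while the sample titles name a vehicle. Nothing in the labels says that libraries of a group came from separate cultures, so p-values then measure only the spread between these libraries.

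Fatty acid synthesis begins in the cytosol, where citrate is cleaved to acetyl-CoA, acetyl-CoA is carboxylated to malonyl-CoA, and fatty acid synthase joins these units into palmitate. Elongases and their partner enzymes in the endoplasmic reticulum lengthen the chain, desaturases introduce double bonds, and acyl-CoA synthetases activate free fatty acids for use in lipids or oxidation. Prostate cancers are known for a high rate of this synthesis, which androgens stimulate through the sterol regulatory element-binding proteins.

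Levels are given as CPM, the counts of a gene relative to the library total scaled by TMM factors. A gene was called higher or lower when its adjusted p was below 0.05 and its change was 1.5-fold or more. Adjusted p-values came from the quasi-likelihood test of edgeR, adjusted by Benjamini-Hochberg over 19278 genes. Log2 fold changes are relative to shScramble unless stated, and where a pair is given, guide 2 comes first and the libraries labelled guide 1 second. METTL3 had 29.8, 31.7 and 33.0 CPM in shScramble, 16.6, 16.6 and 15.8 CPM with guide 2, and 29.4, 30.1 and 29.6 CPM in the libraries labelled guide 1. It fell by 0.95 on the log2 scale with guide 2 (SE 0.0687, edgeR adjusted p = 2.97e-12) and was -0.08 in the libraries labelled guide 1 (SE 0.0633, edgeR adjusted p = 0.251), where the ranges of the groups overlapped. The libraries labelled guide 1 are therefore referred to by their label. The total of counts per library lay between 21899501 and 30897639. Correlations of log2 CPM across genes were 0.991 to 0.994 within groups and 0.937 to 0.938 between shScramble and the libraries labelled guide 1, so this last group stood well apart. The exact permutation test over 3 against 3 libraries cannot give a p below 0.1.

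Promoter sequence is shown for members that rose with guide 2 (ELOVL6, FADS2, SCD) and for paralogues of SCD and ELOVL6 that fell with it and rose in the libraries labelled guide 1 (SCD5, ELOVL2). Each is the 250 bases before the start in the RefSeq table of GRCh38.p14, written 5′ to 3′ on the strand of the gene. Capitals mark the sterol regulatory element core CACCCCAC, the related form TCACNCCAC (N is any base), the E-box CACGTG, the CCAAT box and the GC box GGGCGG, searched on both strands. The windows are chr4:110198616-110198865 on the minus strand, chr11:61815953-61816202 on the plus strand (the first of 2 starts), chr10:100346983-100347232 on the plus strand, chr4:82798797-82799046 on the minus strand and chr6:11044306-11044555 on the minus strand.
ELOVL6: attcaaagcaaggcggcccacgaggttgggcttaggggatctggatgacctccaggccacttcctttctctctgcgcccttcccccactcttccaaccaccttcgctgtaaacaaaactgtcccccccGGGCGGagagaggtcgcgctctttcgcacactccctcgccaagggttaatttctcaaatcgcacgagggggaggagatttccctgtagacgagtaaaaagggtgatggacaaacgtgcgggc
FADS2: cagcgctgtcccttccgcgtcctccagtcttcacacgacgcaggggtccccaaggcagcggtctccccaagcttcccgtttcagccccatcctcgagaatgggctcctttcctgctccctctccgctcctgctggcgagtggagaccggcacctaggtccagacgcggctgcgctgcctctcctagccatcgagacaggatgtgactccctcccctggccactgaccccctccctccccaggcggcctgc
SCD: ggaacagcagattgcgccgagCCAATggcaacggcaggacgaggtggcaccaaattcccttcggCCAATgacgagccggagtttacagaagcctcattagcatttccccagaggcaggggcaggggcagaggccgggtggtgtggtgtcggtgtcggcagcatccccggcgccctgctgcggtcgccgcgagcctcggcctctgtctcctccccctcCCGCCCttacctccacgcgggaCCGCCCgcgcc
SCD5: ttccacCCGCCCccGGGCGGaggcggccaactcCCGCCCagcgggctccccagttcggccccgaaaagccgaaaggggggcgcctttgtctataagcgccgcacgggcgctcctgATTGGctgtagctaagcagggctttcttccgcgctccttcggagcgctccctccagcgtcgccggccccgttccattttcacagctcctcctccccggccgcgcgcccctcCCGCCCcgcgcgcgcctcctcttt
ELOVL2: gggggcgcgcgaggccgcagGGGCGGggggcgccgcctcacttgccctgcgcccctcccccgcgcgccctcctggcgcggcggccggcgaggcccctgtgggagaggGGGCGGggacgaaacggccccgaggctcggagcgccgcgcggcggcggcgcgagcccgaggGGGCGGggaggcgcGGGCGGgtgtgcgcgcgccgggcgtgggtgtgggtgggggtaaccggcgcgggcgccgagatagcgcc
The SCD window held 2 CCAAT boxes and 2 GC boxes. The FADS2 window shown held none of the motifs, and the window of its other start held 1 GC box. SCD5 had 1 CCAAT box and 4 GC boxes, ELOVL2 4 GC boxes and ELOVL6 1 GC box. RefSeq promoters were matched for 32 of 36 members (54 starts). FASN, HSD17B12, OLAH and OXSM had no entry. The GC box was present in 70.4% of members' windows and in 42.6% of all 35116 windows, and the median GC content was 66.6% in members' windows and 58.0% in all. The CCAAT box was in 35.2% of members' windows against 32.0% of all. The sterol regulatory element core was in 3.70% against 2.43%, in windows of ACSL1 and ACSL6. The related form, which also requires a leading T, was in 3.70% against 0.883%, in the same genes. The E-box was in 3.70% of members' windows (ELOVL4 and ELOVL5) against 6.35% of all.

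Guide 2 was accompanied by higher RNA of several abundant enzymes of the pathway and lower RNA of several scarce paralogues. Of 34 members tested, 17 were called (50%), against 29.3% of all genes tested. Of these, 11 were higher, against 8.85% of all genes, and 6 were lower, against 20.4% of all genes. The median log2 fold change of the tested members was 0.36, whereas that of all genes was -0.04. Scaled by library size alone, these medians were 0.21 and -0.19, 14 members were called (8 higher, 6 lower), and 17.2% of the calls among all genes were higher in place of 30.2%. Among all genes the share called differed with level. Genes were split into 3 equal groups by mean level over all 9 libraries, those labelled guide 1 included. With guide 2, 10.7% of the highest group were higher and 3.38% were lower. In that group lay 24 members, of which 10 were higher and 0 lower. The middle group held 6 members, 0 higher and 4 lower, where 9.41% of its genes were higher and 19.5% lower. The lowest group held 4 members, 1 higher and 2 lower, where 6.41% were higher and 38.4% lower.

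The summed CPM of the 36 members was 4283 ± 156 in shScramble, 7569 ± 356 with guide 2 and 4056 ± 251 in the libraries labelled guide 1 (SD, n = 3 each). It ranged from 4125 to 4437 in shScramble and from 7324 to 7977 with guide 2, so these groups did not overlap. Of the difference between the 2 groups, FADS2 made up 25.0%, FASN 22.6%, SCD 22.6%, ACLY 7.20% and FADS1 4.65%. These shares are of CPM not divided by exon length, so longer genes weigh more in them. Per kilobase of exon, SCD went from 89.96 to 228.6 CPM, FASN from 71.35 to 153.3 CPM and FADS2 from 29.89 to 104.3 CPM. In these bulk libraries, fewer cells that express a gene and less RNA of it per cell cannot be told apart.

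The counts by step that follow rest on 2 to 6 genes each and stand beside the shares of all genes given above, 8.85% higher and 20.4% lower with guide 2. In the supply of acetyl-CoA and malonyl-CoA, 1 of 6 members was higher with guide 2 and 0 were lower. ACLY, which cleaves cytosolic citrate to acetyl-CoA, had 319, 298 and 289.6 CPM in shScramble, 522, 529.6 and 565 CPM with guide 2, and 288, 331 and 312 CPM in the libraries labelled guide 1. Every guide 2 library was above every other library, while the other groups overlapped. ACLY rose by 0.83 (SE 0.0524, edgeR adjusted p = 1.66e-13), and its difference in the libraries labelled guide 1 was 0.04 (edgeR adjusted p = 0.548). ACSS2, which makes acetyl-CoA from acetate, had 79.7, 78.6 and 69.5 CPM in shScramble, 97.3, 95.0 and 102.8 CPM with guide 2, and 50.1, 52.9 and 48.8 CPM in the libraries labelled guide 1. No library of one group lay within the range of another, and ACSS2 fell by 0.59 in the libraries labelled guide 1 (SE 0.0551, edgeR adjusted p = 2.29e-10) and was at 0.37 with guide 2, below the fold limit. The fall lay at the fold limit, and the call was lost without shScramble library 1 (-0.55) or 2 (-0.57) or the libraries labelled guide 1 numbered 1 (-0.58) or 3 (-0.56). ACSS1, its mitochondrial counterpart, was at -0.19 and 0.35, ACACA and ACACB, the carboxylases that make malonyl-CoA, were at 0.36 and -0.14 with guide 2 and at -0.43 and -0.38 in the libraries labelled guide 1, and ME1, which supplies NADPH, was at 0.29 and -0.55. None of these passed the fold limit against shScramble. ACACA accounted for 88.4% ± 0.135 of the RNA of the carboxylases per kilobase of exon in shScramble and 91.5% ± 0.164 with guide 2 (SD, n = 3 each).

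FASN, the multienzyme that builds palmitate, had 692, 655 and 595 CPM in shScramble, 1365, 1287 and 1519 CPM with guide 2, and 482, 614 and 599 CPM in the libraries labelled guide 1. The guide 2 libraries were all above the rest, and the other groups overlapped. FASN rose 2.15-fold with guide 2 (log2 1.10, SE 0.0995, edgeR adjusted p = 4.32e-06) and was at -0.20 in the libraries labelled guide 1 (edgeR adjusted p = 0.103). Its counts came from chr17:82078333-82098332 (GRCh38) on the minus strand, and no other gene shared its exons. PPT1, a lysosomal thioesterase that removes palmitate from proteins, was at 0.45 with guide 2 and 0.22 in the libraries labelled guide 1, both below the fold limit. THRSP, a lipogenic protein, had 10 to 15 counts in shScramble, 9 to 20 with guide 2 and 4 to 10 in the libraries labelled guide 1, and was not called against shScramble (edgeR adjusted p = 0.246 and 0.173). OLAH, the thioesterase that releases medium chains from fatty acid synthase, had 1 to 12 counts in the 9 libraries and was not tested. In mitochondrial fatty acid synthesis, a separate route that feeds lipoic acid, 1 of 4 members was higher with guide 2. MCAT, its malonyl transferase, had 30.6, 34.3 and 34.6 CPM in shScramble, 56.8, 52.4 and 52.7 CPM with guide 2, and 37.1, 28.3 and 33.0 CPM in the libraries labelled guide 1. Guide 2 stood clear of both other groups, and MCAT rose by 0.71 (SE 0.0759, edgeR adjusted p = 3.6e-08), a call lost at 0.56 when libraries were scaled by size alone. MECR, the last reductase of that cycle, had 50.2, 51.9 and 50.5 CPM in shScramble, 70.0, 62.9 and 68.9 CPM with guide 2, and 80.4, 78.4 and 78.1 CPM in the libraries labelled guide 1. The 3 groups did not overlap, and MECR rose by 0.63 in the libraries labelled guide 1 (SE 0.0508, edgeR adjusted p = 8.88e-12) and was at 0.40 with guide 2. OXSM and CBR4, the condensing enzyme and a subunit of a reductase of the same route, were between -0.23 and 0.31 and were not called. OXSM shares 21.6% of its exon bases with NGLY1 on the opposite strand, and without a stated strand setting the reads of overlapping genes cannot be told apart.

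Among the delta-9 desaturases, which place the first double bond in stearate and palmitate, the major and the minor gene moved in opposite directions with guide 2. SCD had 552, 448 and 447 CPM in shScramble, 1183, 1172 and 1322 CPM with guide 2, and 614, 825 and 718 CPM in the libraries labelled guide 1. The groups did not overlap, and the order was guide 2, the libraries labelled guide 1, then shScramble. SCD rose 2.54-fold with guide 2 (log2 1.35, SE 0.131, edgeR adjusted p = 6.05e-05) and was at 0.58 in the libraries labelled guide 1 (edgeR adjusted p = 0.0052), just short of the fold limit. It was called higher there with DESeq2 (0.585) and without shScramble library 1 or the library labelled guide 1 numbered 1 (0.68 each). SCD5 had 45, 44 and 43 counts in shScramble, 22, 13 and 14 counts with guide 2, and 283, 311 and 312 counts in the libraries labelled guide 1. Again the groups did not overlap, and SCD5 fell by 1.14 with guide 2 (SE 0.251, edgeR adjusted p = 0.000297) and rose 6.77-fold in the libraries labelled guide 1 (log2 2.76, edgeR adjusted p = 6.05e-15). SCD5 remained the minor gene per kilobase of exon, at 0.412%, 0.0719% and 1.81% of the RNA of the pair in shScramble, with guide 2 and in the libraries labelled guide 1.

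The elongases carry out the first, rate-limiting condensation of chain elongation, and each prefers substrates of a certain length and saturation. With guide 2, 2 of 6 tested were higher and 3 lower, beside 8.85% and 20.4% of all genes. ELOVL6, which extends palmitate to stearate, had 34.7, 27.2 and 28.5 CPM in shScramble, 106.7, 111.8 and 112.8 CPM with guide 2, and 28.4, 33.3 and 29.97 CPM in the libraries labelled guide 1. Guide 2 was far above both other groups, which overlapped, and ELOVL6 rose 3.66-fold (log2 1.87, SE 0.0733, edgeR adjusted p = 9.57e-15), the largest rise with guide 2 of the 34 members tested. ELOVL1, which extends saturated very long chains, had 72.2, 75.1 and 72.9 CPM in shScramble, 116.0, 112.1 and 116.2 CPM with guide 2, and 48.1, 49.6 and 50.5 CPM in the libraries labelled guide 1. These groups did not overlap, and ELOVL1 rose by 0.64 with guide 2 (SE 0.0461, edgeR adjusted p = 2.29e-12) and was at -0.57 in the libraries labelled guide 1, just short of the fold limit. Scaled by library size alone, its guide 2 value was 0.49 and not called, and its value in the libraries labelled guide 1 was -0.59 and called lower, as it was without shScramble library 1 or the library labelled guide 1 numbered 3. ELOVL5, which extends polyunsaturated chains, was at 0.45 and -0.07. ELOVL7, which extends saturated and monounsaturated chains, had 20.4, 22.5 and 19.0 CPM in shScramble, 14.4, 13.4 and 13.6 CPM with guide 2, and 21.7, 21.0 and 19.3 CPM in the libraries labelled guide 1. It fell by 0.59 with guide 2 (SE 0.0829, edgeR adjusted p = 7.57e-07), at the edge of the fold limit, and the call was lost with DESeq2 and without shScramble library 2 or any guide 2 library but the first, among others. It was at -0.0042 in the libraries labelled guide 1.

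The scarce elongases differed most between the guides. ELOVL2, which extends long polyunsaturated chains, had 51, 61 and 45 counts in shScramble, 9, 3 and 6 counts with guide 2, and 528, 500 and 542 counts in the libraries labelled guide 1. The groups were fully apart, and ELOVL2 fell by 2.82 with guide 2 (SE 0.29, edgeR adjusted p = 2.83e-09) and rose 9.90-fold in the libraries labelled guide 1 (log2 3.31, SE 0.133, edgeR adjusted p = 2.17e-18). ELOVL4, which makes very long chains of retina, skin and brain, had 37, 40 and 23 counts in shScramble, 5, 7 and 12 counts with guide 2, and 295, 254 and 290 counts in the libraries labelled guide 1. It too had no overlap between groups, fell by 1.75 with guide 2 (SE 0.311, edgeR adjusted p = 2.14e-05) and rose 8.32-fold in the libraries labelled guide 1 (log2 3.06, edgeR adjusted p = 3.03e-15). ELOVL3 had 1 count in 1 guide 2 library and 0 in the other 8, and a floor of 3 counts corresponds to 0.0942 to 0.136 CPM, for counting error only. Per kilobase of exon, ELOVL6 went from 5.98% ± 0.900 of the summed elongase RNA in shScramble to 14.3% ± 0.596 with guide 2, and ELOVL7 went from 6.50% ± 0.310 to 2.85% ± 0.103 (SD, n = 3 each). ELOVL2 and ELOVL4 made up 0.667% and 0.547% in shScramble, 0.0613% and 0.107% with guide 2, and 6.98% and 4.90% in the libraries labelled guide 1. ELOVL1 and ELOVL5 together remained the bulk of the family in all groups, with ELOVL1 at 42.3%, 43.3% and 30.2%, and ELOVL5 at 44.0%, 39.4% and 44.6%, in the same order.

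Of the enzymes that complete the elongation cycle by reduction, dehydration and a second reduction, 2 of 5 were higher and 1 lower with guide 2, few genes beside the same shares. TECR, the final reductase, had 72.7, 69.3 and 65.5 CPM in shScramble, 112.9, 109.9 and 125.7 CPM with guide 2, and 64.2, 71.1 and 75.9 CPM in the libraries labelled guide 1. Guide 2 was above the rest in every library, and TECR rose by 0.75 (SE 0.0604, edgeR adjusted p = 1.43e-10). HACD3, a dehydratase, had 120.3, 124.1 and 124.7 CPM in shScramble, 183, 187 and 187 CPM with guide 2, and 163, 156 and 158 CPM in the libraries labelled guide 1. It rose by 0.59 with guide 2 (SE 0.0432, edgeR adjusted p = 3.31e-12), close to the fold limit and not called at 0.44 when scaled by library size alone or without shScramble library 1 (0.58), and was at 0.37 in the libraries labelled guide 1, and the 3 groups did not overlap. HACD1, a dehydratase found mainly in muscle, had 20, 26 and 20 counts in shScramble, 4, 12 and 12 counts with guide 2, and 204, 157 and 173 counts in the libraries labelled guide 1. These groups were apart as well, although the counts with guide 2 were few. HACD1 fell by 0.95 with guide 2 (SE 0.352, edgeR adjusted p = 0.0218), a call lost without shScramble library 2 or 3 or guide 2 library 1, and it rose 7.98-fold in the libraries labelled guide 1 (log2 3.00, SE 0.215, edgeR adjusted p = 8.74e-13). HACD2, the other widely expressed dehydratase, was at 0.19 and -0.15, and HSD17B12, the first reductase, at -0.41 and 0.44, neither past the fold limit against shScramble. An antisense gene covers 11.02% of the exon bases of HSD17B12.

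FADS1, FADS2 and FADS3 lie together on chromosome 11 of GRCh38, at 61799625-61829318 on the minus strand, 61792980-61867354 on the plus strand and 61873519-61892051 on the minus strand. The span of FADS1 lies within that of FADS2, and FADS3 lies beside them. FADS1 and FADS2 are the delta-5 and delta-6 desaturases of polyunsaturated fatty acid synthesis. Both rose with guide 2, while FADS3 did not. FADS2 had 351, 323 and 315 CPM in shScramble, 1111, 1137 and 1204 CPM with guide 2, and 199.8, 240.0 and 221 CPM in the libraries labelled guide 1. The groups did not overlap, and FADS2 rose 3.49-fold with guide 2 (log2 1.80, SE 0.0588, edgeR adjusted p = 3.75e-18) and was at -0.58 in the libraries labelled guide 1, just short of the fold limit. It was called lower there when scaled by library size alone, with the filter at a mean of 1 CPM, and without any 1 of 6 libraries (shScramble 2 or 3, each of guide 2, and the library labelled guide 1 numbered 2), at -0.65 to -0.59. FADS1 had 4823, 4449 and 3404 counts in shScramble, 6642, 7409 and 7044 counts with guide 2, and 4003, 4167 and 4448 counts in the libraries labelled guide 1. It rose 2.03-fold with guide 2 (log2 1.02, SE 0.0498, edgeR adjusted p = 8.86e-16), with the other groups overlapping at -0.02. FADS3, whose product acts on sphingoid bases, had 46.6, 46.4 and 44.3 CPM in shScramble, 36.4, 34.2 and 37.1 CPM with guide 2, and 28.7, 30.6 and 30.2 CPM in the libraries labelled guide 1. No group overlapped another, and FADS3 fell by 0.62 in the libraries labelled guide 1 (SE 0.0582, edgeR adjusted p = 2.49e-10) and was at -0.35 with guide 2. FADS1 and FADS2 share 490 exon bases on opposite strands, 4.79% and 4.44% of their exon bases, so a part of the reads of one could have been counted for the other. Per kilobase of exon, FADS2 made up 57.8% ± 0.792 of the family in shScramble, 74.8% ± 0.198 with guide 2 and 51.1% ± 1.49 in the libraries labelled guide 1 (SD, n = 3 each).

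The long-chain acyl-CoA synthetases couple free fatty acids to coenzyme A, and 2 of 5 were higher and 2 lower in the libraries labelled guide 1, where 21.2% of all genes were higher and 16.5% lower. ACSL1, the most abundant, had 564, 608 and 568 CPM in shScramble, 603, 591 and 639 CPM with guide 2, and 325, 346 and 346 CPM in the libraries labelled guide 1. The last group was below the rest in every library, while shScramble and guide 2 overlapped. ACSL1 fell by 0.77 there (SE 0.0484, edgeR adjusted p = 4.48e-14) and was at 0.08 with guide 2 (edgeR adjusted p = 0.177). ACSL4, which prefers arachidonate, had 118, 134 and 114 counts in shScramble, 90, 122 and 104 counts with guide 2, and 880, 836 and 850 counts in the libraries labelled guide 1. The first groups overlapped and the last stood far above them, and ACSL4 rose 6.93-fold there (log2 2.79, SE 0.101, edgeR adjusted p = 2.05e-19) and was at 0.07 with guide 2 (edgeR adjusted p = 0.67). ACSL3, of lipid droplets and the endoplasmic reticulum, was at 0.49 and -0.11. ACSL5 had 61, 43 and 23 counts in shScramble, 48, 79 and 78 counts with guide 2, and 14, 14 and 26 counts in the libraries labelled guide 1. As CPM the groups did not overlap, and ACSL5 rose by 0.99 with guide 2 (SE 0.254, edgeR adjusted p = 0.00147) and fell by 1.23 in the libraries labelled guide 1 (SE 0.312, edgeR adjusted p = 0.00106). ACSL6, known from brain, had 48, 26 and 32 counts in shScramble, 11, 22 and 12 counts with guide 2, and 89, 106 and 75 counts in the libraries labelled guide 1. Its range as CPM with guide 2 overlapped that of shScramble, and the fall by 0.96 (SE 0.322, edgeR adjusted p = 0.0118) was no longer called without shScramble library 1 (edgeR adjusted p = 0.0794) or guide 2 library 1 (edgeR adjusted p = 0.063). It rose by 1.33 in the libraries labelled guide 1 (SE 0.244, edgeR adjusted p = 2.33e-05), and 15.4% of its exon bases belong also to another gene on the same strand. Per kilobase of exon, ACSL1 made up 81.7%, 77.1% and 70.0% of the family in shScramble, with guide 2 and in the libraries labelled guide 1, and ACSL4 0.5998%, 0.556% and 6.03%.

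The order of the members by CPM per kilobase of exon changed with guide 2. In shScramble the highest was ACSL1 at 92.3 ± 3.86, followed by SCD at 89.96 ± 11.3, which did not differ beyond their spread, and then FASN at 71.4 ± 5.38 and ACLY at 57.9 ± 2.90. PPT1 followed at 50.3 ± 1.41, with ME1 within its spread. With guide 2 the order was SCD at 229 ± 15.6, FASN at 153 ± 13.0, then FADS2, ACLY and ACSL1 at 104 ± 4.35, 103 ± 4.37 and 97.3 ± 4.01 (SD, n = 3 each). FADS2 and ACLY lay within their spread. In the libraries labelled guide 1, SCD led at 134 ± 19.7, and FASN, ACLY, PPT1 and ACSL1 lay between 54.0 and 62.3. The members lower with guide 2 had 0.0966 to 4.50 CPM per kilobase in shScramble, with a median of 0.373, and those higher had 0.341 to 89.96, with a median of 17.3.

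Against shScramble, 11 of 34 members were called in the libraries labelled guide 1 (32.4%), where 37.7% of all genes were called. There were 7 higher, beside 21.2% of all genes, and 4 lower, beside 16.5%. The median of the tested members was -0.01 and that of all genes -0.02. This comparison uses the shScramble libraries of the comparison with guide 2, so the values of both are given side by side and no overlap between them is read. The guides were compared directly instead. Between guide 2 and the libraries labelled guide 1, 23 of 34 members differed (67.6%), where 47.3% of all genes did. Of these, 16 were higher with guide 2, beside 19.1% of all genes, and 7 were lower, beside 28.2%. The members' median was 0.44 and that of all genes -0.06. FADS2 was 2.39 higher on the log2 scale with guide 2 (SE 0.0602, edgeR adjusted p = 9.04e-22), ELOVL6 1.85 (SE 0.0731, edgeR adjusted p = 1.55e-15) and FASN 1.30 (SE 0.1, edgeR adjusted p = 6.06e-07). ELOVL2 was at -6.13 (SE 0.197, edgeR adjusted p = 7.97e-21), ELOVL4 at -4.81 and SCD5 at -3.90. MECR, CBR4, HACD3 and PPT1 were among the 11 members not called, at values between -0.23 and 0.22.

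Genes that control or surround the pathway were described from lists of non-members. The counts of these lists with guide 2 stand beside 8.85% of all genes higher and 20.4% lower. Of 13 regulators of lipogenic transcription, 3 were higher and 0 lower with guide 2, with a median of 0.16. INSIG1, which retains the sterol sensor of this system in the endoplasmic reticulum and is itself a sterol-regulated gene, had 117 ± 9.82 CPM in shScramble and 323 ± 23.7 CPM with guide 2 (log2 1.46, SE 0.0776, edgeR adjusted p = 1.11e-09), and was at -0.27 in the libraries labelled guide 1. In citrate export and NADPH supply, 5 of 10 were higher and 0 lower (median 0.58). Of 12 genes of fatty acid uptake and binding, 3 were higher and 2 lower (median 0.05). Among these, FABP5, a fatty acid-binding protein, had 22, 17 and 24 counts in shScramble and 1, 5 and 3 counts with guide 2. In the libraries labelled guide 1 it had 261, 208 and 270 counts. It fell by 2.49 with guide 2 (SE 0.459), near the floor of 3 counts, and rose by 3.52 in the libraries labelled guide 1. FABP5 reached the mean of 1 CPM required for naming only through the latter (0.766, 0.126 and 8.56 CPM in that order). Of 17 genes of glycerolipid assembly and lipid droplets, 3 were higher and 3 lower (median 0.22). Of the latter, PLIN3 rose by 1.04 with guide 2, and PLIN2, which coats lipid droplets, had 3.26 ± 0.322 CPM in shScramble, 0.698 ± 0.0413 CPM with guide 2 and 31.7 ± 0.643 CPM in the libraries labelled guide 1 (SD, n = 3 each).

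In fatty acid beta-oxidation, 4 of 24 genes were higher and 1 lower with guide 2 (median 0.20), with HADH, a mitochondrial dehydrogenase of that spiral, at 0.88 and CPT1B, the muscle carnitine palmitoyltransferase, at -0.98. Of 9 genes of AMP-activated kinase and malonyl-CoA control, 0 were higher and 1 lower, PRKAA2, a catalytic subunit, at -0.76. Of 9 acyl-CoA thioesterases, 1 was higher, ACOT7 at 1.09. Of 7 other acyl-CoA synthetases and elongation genes, 2 were lower, and of 7 genes of the mitochondrial acyl carrier and lipoate, 1 was lower, LIPT1 at -0.64. The medians of these last lists were -0.08, 0.22, 0.15 and 0.04. All these counts with guide 2 stand beside the same 8.85% and 20.4% of all genes. In the libraries labelled guide 1, 21.2% of all genes were higher and 16.5% lower, and the counts that follow stand beside these shares. There, 1 of the 24 beta-oxidation genes was higher and 4 lower (median -0.41). Of the 13 regulators, 0 were higher and 1 lower (median -0.09). Of the 10 genes of citrate and NADPH supply, 1 was higher and 1 lower (median -0.02). The corresponding counts were 4 higher and 3 lower of 12 for uptake (median 0.07), 4 and 2 of 17 for glycerolipids (0.07), 1 and 3 of 9 for AMP-activated kinase (-0.15), 1 and 2 of 9 for thioesterases (-0.23), 0 and 1 of 7 for other synthetases (0.20) and 1 and 0 of 7 for the acyl carrier (0.16). Of the genes named in this paragraph, PRKAA2 was called higher there (2.05) and CPT1B lower (-0.65). HADH, ACOT7 and LIPT1 were not called there (0.31, 0.32 and 0.33).

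Several markers of cell identity differed between the groups. All 10 luminal prostate markers were tested, and their summed CPM was 2662 to 2690 in shScramble, 3023 to 3156 with guide 2 and 1379 to 1424 in the libraries labelled guide 1. With guide 2, 2 luminal markers were higher and 1 lower (median -0.0082), beside 8.85% and 20.4% of all genes, and 7 were not called. HOXB13 rose by 0.78 and KLK3 fell by 0.82. In the libraries labelled guide 1, 0 luminal markers were higher and 5 lower (median -0.66), beside 21.2% and 16.5% of all genes. Of 6 neuroendocrine markers, 5 were tested. With guide 2, where 8.85% of all genes were higher and 20.4% lower, 0 were higher and 4 lower. In the libraries labelled guide 1, where these shares were 21.2% and 16.5%, 4 of the markers were higher and 0 lower. Of these, CHGB and INSM1 had 3 counts or fewer in every guide 2 library and passed the filter on low counts through the libraries labelled guide 1, so the counts over this list are a description only. Their summed CPM was 9.67 to 11.9 in shScramble, 3.39 to 5.03 with guide 2 and 75.2 to 79.3 in the libraries labelled guide 1. NCAM1 had 4.64, 0.624 and 55.0 CPM, SYP 4.83, 3.31 and 11.2 CPM and INSM1 0.442, 0.0699 and 8.99 CPM in that order. ELOVL2, ELOVL4, SCD5, HACD1 and ACSL6 shared this order of the groups. So did HSD17B12, at 64.58, 48.5 and 87.45 CPM, and ACSS1, at 54.39, 47.88 and 69.65 CPM, neither called against shScramble. The share of all genes in this order was not counted. The part of the markers in the values of these members was not tested. The 4 basal markers reached at most 0.199 CPM, with KRT5 and TP63 at 0 in every library. Fibroblast markers summed to 43.5 to 46.7, 37.3 to 40.6 and 19.98 to 26.4 CPM in the same order, mostly from COL1A1, which was at -0.30 with guide 2 and not called. PDGFRB rose by 1.33 with guide 2, from 1.63 to 4.02 CPM, and DCN was at 0. Leukocyte markers summed to at most 2.11 CPM, with CD3E at 0, endothelial markers to at most 3.49 CPM, led by VWF and with PECAM1 at 0, and adipocyte markers to at most 0.803 CPM.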

How the data were processed

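Gene expression was measured by paired-end RNA-seq in 9 libraries of LNCaP:C4-2 cells, grouped by the sample labels. The authors trimmed adapters with Trim Galore, a wrapper of cutadapt and FastQC, discarded low-quality reads, aligned to GRCh38 with STAR and counted reads per gene with featureCounts, and deposited raw counts with exon coordinates and exon length for each gene, neither normalized nor pooled. Tool versions, strand setting and treatment of multi-mapping reads are not given in the sources used here, so reads of overlapping genes and close paralogues could be assigned to either. Of 60675 genes, 56558 (93.2%) received a symbol, and 0 rows lacked a gene.

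Everything else was computed from these counts in R 4.3.3 and Python 3.11.15. Libraries were scaled by TMM factors (0.928 to 1.04). Genes were filtered with filterByExpr (minimum count 10, minimum total 15), leaving 19278. Differential expression was tested with edgeR 4.0.16 (glmQLFit, robust, and glmQLFTest) on all 9 libraries together, with group as the sole term, and p-values were adjusted by the Benjamini-Hochberg method over all genes tested. The study used DESeq2, which is an alternative here (version 1.42.0). Log2 fold changes use edgeR's estimates. CPM per kilobase divides scaled CPM by the deposited exon length, which compares levels between genes. No 2 libraries of a group agreed within sampling noise (chi-square per gene 3.42 to 8.73). On simulated data, the test recovered 196 of 200 genes changed 2-fold in the right direction and called 3 unchanged genes. That simulation gave all genes the same spread and changed only genes of at least 1 CPM. It therefore does not cover scarcer genes or changes near 1.5-fold.

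The 36 members and the lists of non-members and cell markers were chosen with earlier results of these data known. Named genes are METTL3, the members, the called non-member of each list (mean 1 CPM or more) that rose most and that fell most with guide 2, and markers that reached 1 CPM. Some genes that this rule names are not reported here. Members called against shScramble are given in every library. The alternatives were each library left out in turn, DESeq2 as the test, its size factors in edgeR, scaling by library size, an unfiltered table, a filter at a mean of 1 CPM, fits of 6 libraries, a replicate block, calls by adjusted p-value, and glmTreat against 1.5-fold. Totals of 21899501 to 30897639 counts bear on the precision. Standard errors come from the edgeR fit and include the spread between libraries, while floors cover counting error only.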

Additional observations from a re-analysis of the deposited data

Results flagged for a closer look

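The 23 members given here differed between the guides in the direct test of guide 2 against the libraries labelled guide 1 (edgeR's quasi-likelihood test, 3 libraries against 3, adjusted over all genes), where 47.3% of all genes tested differed. The log2 differences of those higher with guide 2 were ACLY 0.80, ACSS2 0.96, ACACA 0.79, ME1 0.83, FASN 1.30, THRSP 1.30, MCAT 0.72, SCD 0.77, ELOVL1 1.22, ELOVL6 1.85, TECR 0.72, FADS1 1.04, FADS2 2.39, ACSL1 0.85, ACSL3 0.60 and ACSL5 2.21. The log2 differences of those lower with guide 2 were SCD5 -3.90, ELOVL2 -6.125, ELOVL4 -4.81, HSD17B12 -0.85, HACD1 -3.94, ACSL4 -2.73 and ACSL6 -2.29. The highest adjusted p-value among the 23 was that of THRSP, at 0.0124, from 4 to 20 counts per library, and the call for THRSP was lost without guide 2 library 2 (edgeR adjusted p = 0.0856) or library 3 labelled guide 1 (edgeR adjusted p = 0.0781). METTL3 RNA was at -0.86 on the log2 scale with guide 2 against the libraries labelled guide 1, and these overlapped shScramble.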

How the results depend on the processing

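With guide 2 against shScramble, 17 members were called, 30 (20 higher, 10 lower) by the adjusted p-value alone, by which 61.8% of all genes were called, and 10 (7 higher, 3 lower) by a test against 1.5-fold, by which 16.9% were. The other settings gave 14 to 16, and leaving out single libraries 15 to 16. For the libraries labelled guide 1 the count was 11, and 25 (13 higher, 12 lower) by the adjusted p-value alone (68.4% of all genes), with 11 to 13 when single libraries were left out. Between the guides it was 23, and 22 to 24 without single libraries. All of ACLY, FASN, SCD, SCD5, ELOVL2, ELOVL4, ELOVL6, TECR, FADS1 and FADS2 kept their guide 2 calls under every alternative run, whereas MCAT, ELOVL1, ELOVL7, HACD1, HACD3, ACSL5 and ACSL6 lost theirs under at least 1 (ACSL5 under the test against 1.5-fold only, edgeR adjusted p = 0.092). In the libraries labelled guide 1, ACSS2, MECR and FADS3 lost theirs under at least 1 of them, and between the guides THRSP, MCAT, SCD and ACSL3 did. Scaling by library size alone moved the median of all genes with guide 2 from -0.04 to -0.19 and the members' median from 0.36 to 0.21, and the share of higher calls among all genes from 30.2% to 17.2% (guide 2 against guide 1, 40.4% to 31.3%). MCAT, ELOVL1 and HACD3 then missed the fold limit at 0.56, 0.49 and 0.44, and OXSM, ACSL1 and ACSL4 changed sign at -0.0254, -0.0755 and -0.083. The replicate numbers did not pair libraries, since deviations of same-numbered libraries correlated at -0.098 to 0.053. With the replicate block 16, 11 and 23 members were called, ELOVL7 (-0.58) being the call lost. Some values near 0 that were not called changed sign. Without single libraries, ACSL4 with guide 2 ranged from -0.015 to 0.164, and in the libraries labelled guide 1 ACLY ranged from -0.0184 to 0.0918, MCAT from -0.104 to 0.0761, ELOVL6 from -0.0637 to 0.134, ELOVL7 from -0.0622 to 0.0566, TECR from -0.0313 to 0.0901 and FADS1 from -0.0676 to 0.0187. CBR4 between the guides ranged from -0.0357 to 0.0188 and was 0.0041 with no filter, and ELOVL7 in the libraries labelled guide 1 was 0.0056 with DESeq2, 0.0046 with its size factors and 0 with the block. METTL3 without single libraries was -0.98 to -0.92 with guide 2, -0.12 to -0.06 in the libraries labelled guide 1, and -0.87 to -0.84 between the guides. The causes were not tested.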
